A study of Mus musculus with 6 samples.

Results

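The genes described here are 10 negative regulators of T cell receptor (TCR) signalling: Cd5, Cd6, Pag1, Ptpn22, Ptpn6, Sh2d2a, Cblb, Ubash3a, Dgka and Dgkz. They were chosen by symbol, and all 10 were found among the 17744 genes of the authors' full table. Their RNA was measured in CD8 T cells of the mouse spleen, which had been sorted for CD45, CD3 and CD8a, in 3 control libraries and 3 libraries from the group labelled fus irradiation, called ultrasound libraries here. The controls carry the genotype label wt, while that field repeats the treatment for the ultrasound samples. The series title names focused ultrasound on the spleen as a way to activate immune function against tumours, so the comparison asks whether these inhibitors differ in CD8 T cells after that treatment. Strain, age, ultrasound dose and the interval to sorting are not given in the sources used here. Nothing in the labels says whether the 3 libraries of a group came from separate animals, so p-values measure only the spread between these samples, which may be technical.

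When the TCR binds its ligand, the kinases Lck and Zap70 phosphorylate the adaptors Lat and Lcp2, and phospholipase C gamma then makes diacylglycerol, which switches on Ras and protein kinase C theta. Negative regulators act on each of these steps: surface receptors and adaptors hold inhibitory enzymes at the membrane, phosphatases remove the activating phosphates, ubiquitin ligases tag signalling proteins, and diacylglycerol kinases use up the lipid messenger. In CD8 T cells they set the threshold for a response and limit it once it has begun.

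The libraries held 35024080 to 38113103 reads, recovered from the deposited values, and the members had between 2932 (Ubash3a in ultrasound 1) and 53042 (Dgka in control 3) reads in a library. The sort markers were present in every library, with Cd8a at 301.7 ± 14.5 FPKM (fragments scaled to gene length and library size) in controls and 269.9 ± 33.0 in ultrasound libraries (SD, n = 3 each). Other cell types were represented as well. The summed level of 11 B cell markers was 387, 253 and 252 FPKM in control 1, 2 and 3, 185 in ultrasound 1, and 979 and 850 in ultrasound 2 and 3. That of 14 macrophage and monocyte markers was 904, 455 and 420 FPKM in the same order of controls, against 2110, 2090 and 3500 for ultrasound 1, 2 and 3, and that of 12 neutrophil markers was 571, 186 and 193 against 2330, 637 and 678. No marker of these 3 lists was at 0 in any library. Ultrasound 1 thus had the lowest B cell and the highest neutrophil sum of the 6. Its macrophage and monocyte sum was close to that of ultrasound 2. Lyz2 alone made up 1430, 1513 and 2721 FPKM of that sum in ultrasound 1, 2 and 3. Over the whole table, limma called 864 of 10655 tested genes, of which ultrasound libraries had 698 higher and 166 lower, and 5628 when ultrasound 1 was left out. It called 571 without control 1 and 0 without control 2, control 3, ultrasound 2 or ultrasound 3, where 1913 to 2137 genes had an unadjusted p under 0.05. With median-of-ratios size factors the calls were 280 higher and 188 lower, and the median log2 change of all genes moved from 0.087 to -0.023. Results below are given with ultrasound 1 and without it wherever it decides them.

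Of the 10 members, Sh2d2a alone passed the test, and it was lower in ultrasound libraries. That is 1 of 10, or 10%, against 8.11% of all tested genes called in either direction, 1.56% lower and 6.55% higher, so the share of members called lies near the background. The median log2 change of the 10 was -0.137, against 0.087 over all tested genes. The members had 8 estimates below 0 and 2 above, and all 10655 tested genes had 4086 below and 6569 above. An unadjusted p under 0.05 was reached by 2 members, Sh2d2a and Dgka, against 31.2% of all tested genes. Without ultrasound 1, 5 of 10 passed (Sh2d2a, Dgka, Ptpn22 and Cblb lower, Ptpn6 higher), against 53.6% of the genes tested in that fit, 19.9% lower and 33.8% higher. Without any single one of the other 5 libraries 0 members passed, with 1 or 2 at an unadjusted p under 0.05. The authors' deposited table has q under 0.05 for 3 members, Sh2d2a, Dgka and Ptpn22, all lower, against 12.3% of its genes, with 4.98% lower. The groups did not overlap for 3 members, Sh2d2a, Dgka and Ptpn22, all lower in ultrasound libraries. Over all tested genes the groups did not overlap for 34.8%, with 8.96% lower and 25.9% higher. The threshold was an adjusted p of 0.05 from limma on log2(FPKM + 1), with Benjamini-Hochberg adjustment over all tested genes.

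**Figure D1:**
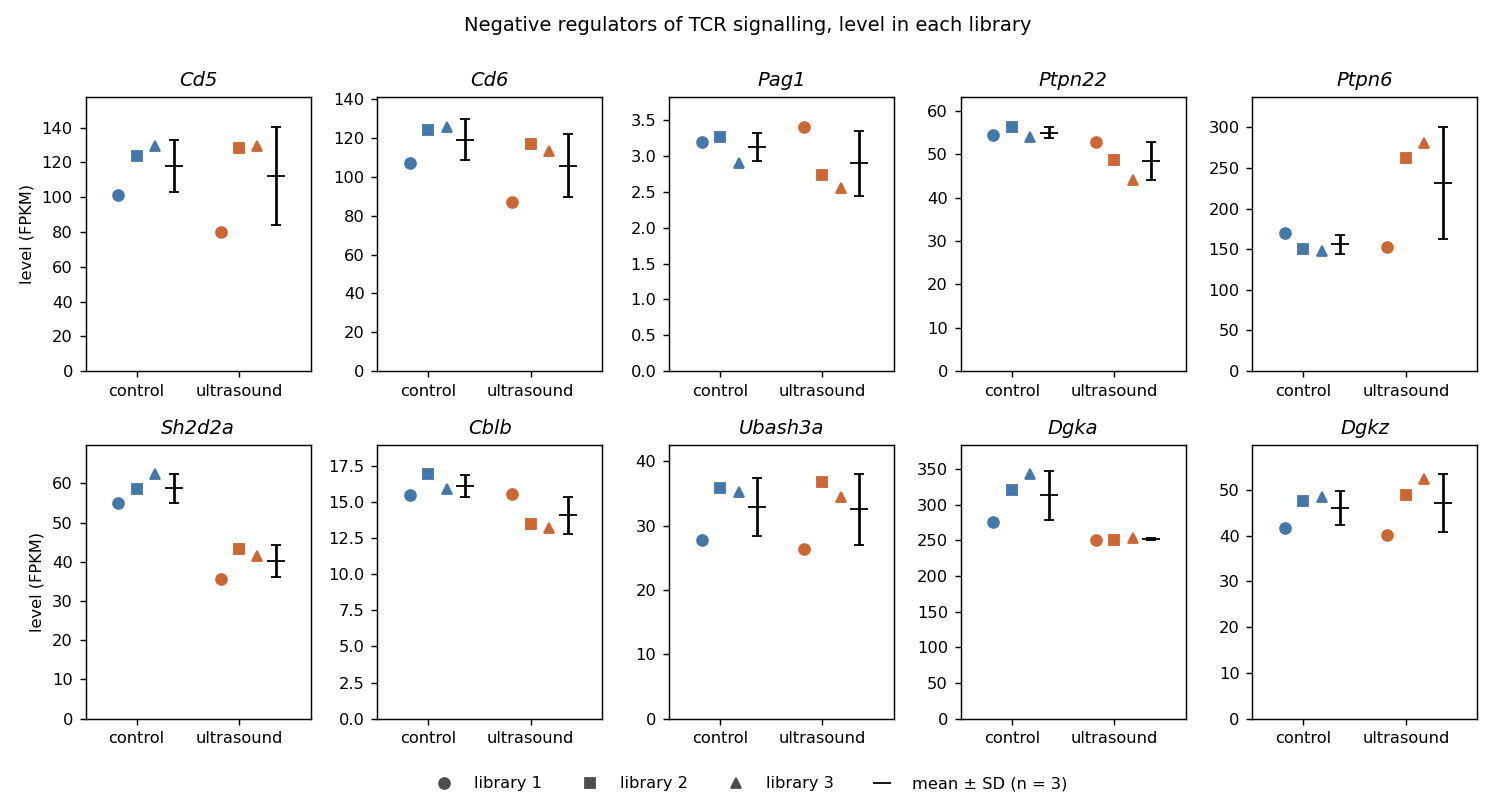
Level of each member in FPKM (vertical axis, from 0) in the 3 control (blue) and 3 ultrasound (orange) libraries, with symbols for library number and black marks for the mean ± SD. For Sh2d2a, Dgka and Ptpn22 the ultrasound libraries all lie below the controls, while Ptpn6 is high in ultrasound 2 and 3 and Cd5 and Cd6 are low in ultrasound 1.

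In controls Dgka had the highest level of the 10, at 313.4 ± 34.7 FPKM (SD, n = 3), followed by Ptpn6 at 156.0 ± 11.8, Cd6 at 119.2 ± 10.5 and Cd5 at 118.1 ± 14.9. Sh2d2a (58.7 ± 3.66), Ptpn22 (55.0 ± 1.23), Dgkz (46.0 ± 3.70) and Ubash3a (33.0 ± 4.53) came next, then Cblb (16.1 ± 0.755) and Pag1 (3.12 ± 0.196). Of neighbours in this order, the control values of Cd6 and Cd5 overlapped, as did those of Sh2d2a and Ptpn22, and those of the other 7 neighbouring pairs did not.

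Cd5 and Cd6 are related scavenger receptor family proteins of the T cell surface whose cytoplasmic tails collect inhibitory enzymes after TCR engagement. Their genes lie on the same strand of chromosome 19 (GRCm38, chr19:10718107-10739026 and chr19:10789339-10830062). Cd5 measured 101.3, 123.5 and 129.6 FPKM in control 1, 2 and 3 and 79.9, 128.1 and 129.3 in ultrasound 1, 2 and 3. Ultrasound 1 was the lowest of the 6, and ultrasound 2 and 3 lay within the controls. The log2 change was -0.097 (95% interval -0.588 to 0.395, limma adjusted p 0.760), and it turned to 0.131 without ultrasound 1. Cd6 showed the same low library: it measured 107.2, 124.4 and 126.0 FPKM in controls and 87.4, 116.8 and 113.6 in ultrasound libraries. Its log2 change was -0.177 (95% interval -0.505 to 0.151, limma adjusted p 0.391), and -0.046 without ultrasound 1.

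Of the known ligands of these receptors, Alcam, which binds Cd6, was at 3.42 ± 1.21 FPKM in controls and 4.94 ± 1.19 in ultrasound libraries (SD, n = 3 each; limma adjusted p 0.231). Cd72, a B cell surface protein reported to bind Cd5, was at 52.5 ± 4.74 and 57.0 ± 17.6 (limma adjusted p 0.848). Cdcp1, a further Cd6 ligand, averaged 0.0969 FPKM in controls and was not tested.

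Pag1 is a membrane adaptor that brings the kinase Csk to Lck, which Csk inhibits, and Ptpn22 is a phosphatase that works with Csk on Lck and Zap70. Both genes lie on chromosome 3 (chr3:9687479-9833684 and chr3:103856575-103912252). Pag1 measured 3.199, 3.269 and 2.901 FPKM in controls and 3.41, 2.74 and 2.55 in ultrasound libraries. Ultrasound 1 was above all controls, ultrasound 2 and 3 below them, and the groups overlapped (log2 change -0.085, 95% interval -0.370 to 0.200, limma adjusted p 0.637). Ptpn22 measured 54.6, 56.4 and 54.1 FPKM in controls and 52.8, 48.6 and 44.1 in ultrasound libraries. All ultrasound values were below all controls, ultrasound 1 only slightly so. The log2 change was -0.181 (95% interval -0.401 to 0.038, limma adjusted p 0.219). Without ultrasound 1 it was -0.244 with a limma adjusted p of 0.0228, and in the authors' deposited table the log2 fold change is -0.307 with q 0.0419.

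Ptpn6 encodes SHP-1, a phosphatase that inhibitory receptors recruit and that B cells and myeloid cells express as well as T cells (chr6:124720707-124738709). It measured 169.6, 150.8 and 147.8 FPKM in controls and 152.9, 262.1 and 280.6 in ultrasound libraries. Ultrasound 1 lay within the controls, and ultrasound 2 and 3 reached 168% and 180% of the control mean. The log2 change over all libraries was 0.522 (95% interval -0.024 to 1.07) and did not pass (limma adjusted p 0.173). Without ultrasound 1 it was 0.796 with a limma adjusted p of 0.000594, and ultrasound 1 alone against the controls gave -0.026. The B cell sum was above all controls in the same 2 libraries. So was that of 8 NK cell markers (58.6, 63.6 and 69.2 FPKM in controls, 47.5, 240 and 132 in ultrasound libraries). That of 9 dendritic cell markers was too (121, 88.6 and 102 against 89.2, 152 and 160). Gzma alone made up 177.8 and 82.3 FPKM of the NK cell sum in ultrasound 2 and 3. Of the 6 NK cell markers tested, 5 had estimates above 0. The other, Eomes, was below every control in all 3 ultrasound libraries (19.6, 31.7 and 24.3 FPKM against 32.0, 39.9 and 36.4). In ultrasound 1, where Ptpn6 lay within the controls, the B cell and NK cell sums were below every control and the dendritic cell sum was within them. The NK cell markers did not move together in that library. Eomes was below every control there. It was the largest single part of the NK cell sum in each control, so the low sum in ultrasound 1 rests on it. Gzma (18.89 FPKM) was level with the lowest control (18.93). Klrb1c (5.15 FPKM against 1.14, 1.96 and 1.60) and Ncr1 (0.533 against 0.133, 0.153 and 0.228) were above every control. Ncr1 rested on 28 reads there, against 7, 8 and 12 in controls. Klri2 (0.392 FPKM) was level with control 1 (0.391), with 54 reads in each. Ncr1 and Klri2 were below the filter and not tested. Control 1 had the highest control value of Ptpn6 and of the B cell, dendritic cell, neutrophil, and macrophage and monocyte sums. Its NK cell sum was the lowest of the controls. The macrophage and monocyte sum was above all controls in all 3 ultrasound libraries. What part these cells have in the Ptpn6 level was not tested. In bulk samples, fewer cells of a type and less RNA per cell cannot be told apart.

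Sh2d2a encodes TSAd, an SH2 adaptor of T and NK cells that binds Lck and is induced on T cell activation (chr3:87846755-87855722). It measured 55.1, 58.7 and 62.4 FPKM in controls and 35.6, 43.3 and 41.5 in ultrasound libraries. Every ultrasound library was below every control, and ultrasound 1 was the lowest. The mean went from 58.7 ± 3.66 to 40.1 ± 4.05 FPKM (SD, n = 3 each), a ratio of 0.683. The log2 change was -0.541 (standard error 0.104, 95% interval -0.788 to -0.294, limma adjusted p 0.0337). In the authors' deposited table the log2 fold change is -0.676 with q 5.51e-06. A further scale set levels against the mean of 8 T cell reference genes (Cd3d, Cd3e, Cd3g, Cd247, Cd8a, Cd8b1, Cd2 and Thy1). Those genes did not move together: 4 had log2 changes above 0 and 4 below, from -0.22 for Cd3d to 0.31 for Cd3e. On that scale Sh2d2a in ultrasound 1, 2 and 3 differed from the control mean by -0.474, -0.602 and -0.537 (log2). The direction held under all 17 alternatives, but the call did not: 9 of them gave an adjusted p above the threshold, at most 0.167, among them the fits without control 1, control 2, control 3, ultrasound 2 or ultrasound 3 (0.0561, 0.167, 0.153, 0.0896 and 0.117).

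Cblb is a ubiquitin ligase that makes T cell activation depend on costimulation through Cd28, and Ubash3a is a suppressor of TCR signalling that carries a phosphatase-like domain and binds ubiquitin and Cbl proteins (chr16:52031230-52208047 and chr17:31207868-31259681). Cblb measured 15.5, 16.9 and 15.9 FPKM in controls and 15.5, 13.5 and 13.2 in ultrasound libraries. Ultrasound 1 lay within the controls, and ultrasound 2 and 3 were below them. The log2 change was -0.185 (95% interval -0.412 to 0.042, limma adjusted p 0.225), and -0.253 without ultrasound 1 (limma adjusted p 0.0226). Ubash3a measured 27.7, 35.9 and 35.3 FPKM in controls and 26.3, 36.9 and 34.4 in ultrasound libraries, and the groups overlapped. Its low values were in control 1 and ultrasound 1, and its log2 change was -0.023 (95% interval -0.400 to 0.354, limma adjusted p 0.928).

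Dgka and Dgkz encode the alpha and zeta diacylglycerol kinases, which turn diacylglycerol into phosphatidic acid and so end the signal to Ras and protein kinase C theta (chr10:128720131-128745084 and chr2:91932822-91976443). Dgka measured 275.3, 321.5 and 343.3 FPKM in controls, and 250.9, 250.9 and 253.7 in ultrasound 1, 2 and 3. The ultrasound values were all below the controls and much closer to each other (SD 1.64 against 34.7). The log2 change was -0.308 (95% interval -0.558 to -0.058) with a limma adjusted p of 0.110, so it did not pass. Without ultrasound 1 the log2 change was -0.306 and the adjusted p 0.0360. The authors' deposited table gives a log2 fold change of -0.441 with q 0.00822. Dgkz measured 41.7, 47.6 and 48.5 FPKM in controls and 40.2, 48.9 and 52.4 in ultrasound libraries. Its groups overlapped, with a log2 change of 0.032 (95% interval -0.261 to 0.324, limma adjusted p 0.871), whose sign turned with median-of-ratios scaling (-0.091) and upper-quartile scaling (-0.062).

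Since FPKM is a level per gene length, the levels of the 2 kinases can be set side by side. Dgka made up 86.8%, 87.1% and 87.6% of their summed FPKM in controls, and 86.2%, 83.7% and 82.9% in ultrasound 1, 2 and 3. The share was below every control in every ultrasound library, by 2.94 percentage points on average (87.2 ± 0.393 against 84.2 ± 1.73, SD, n = 3 each). The exact two-sided permutation test gave p = 0.1, the smallest that 3 against 3 allows. The annotated span of Dgka overlaps Pmel on the opposite strand, but Pmel was at most 0.122 FPKM in any library. Opposite-strand genes also overlap Dgkz (Gm9821), Ptpn6 (Gm20531), Ptpn22 (Gm15602) and Pag1 (Gm16337). The authors deposited no values for these, so their levels are unknown.

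**Figure D2:**
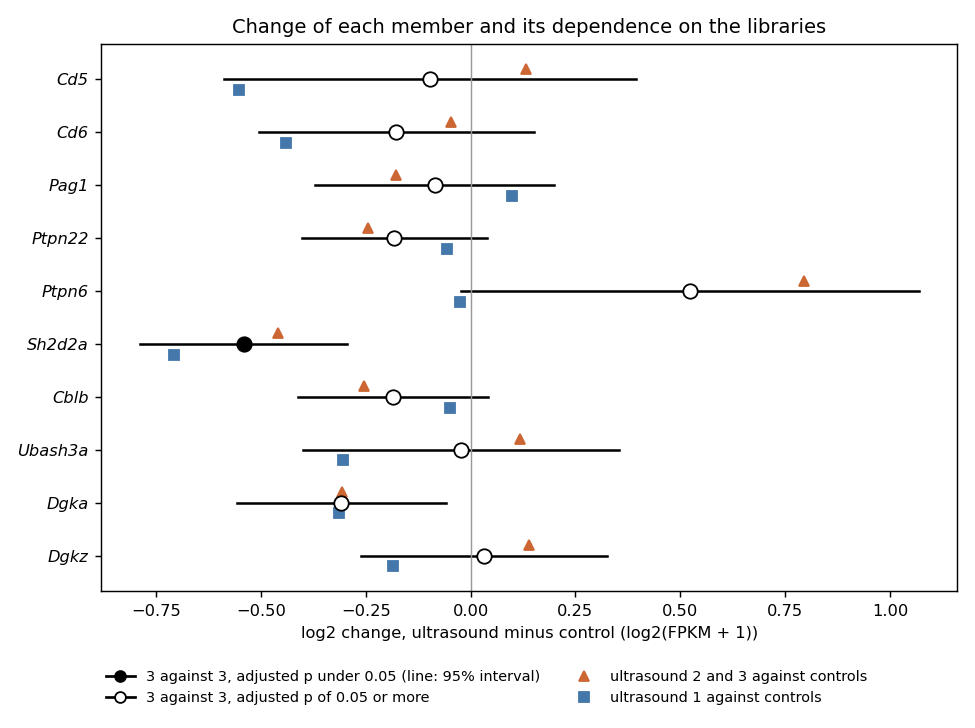
Log2 change of each member, ultrasound minus control (horizontal axis, log2(FPKM + 1)), with its 95% interval. Circles use all 6 libraries, triangles leave out ultrasound 1 and squares set ultrasound 1 alone against the controls. The filled circle, Sh2d2a, passed the test, and for Ptpn6 the square lies at -0.026 and the triangle at 0.796.

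The 3 ultrasound libraries did not share 1 pattern over the members. In ultrasound 1, compared with the control mean, Sh2d2a was at -0.71 on the log2 scale, Cd5 at -0.55, Cd6 at -0.44, Dgka at -0.31 and Ubash3a at -0.30, and the other 5 were between -0.19 and 0.10. In ultrasound 2 and 3, Ptpn6 was at 0.75 and 0.85, Sh2d2a at -0.43 and -0.49, Dgka at -0.31 and -0.30, Cblb at -0.24 and -0.27, and Ptpn22 at -0.17 and -0.31. The T cell reference genes were themselves lower in ultrasound 1, where their mean log2(FPKM + 1) was 7.73, against 7.91 to 7.99 in controls and 8.13 and 8.01 in ultrasound 2 and 3. Relative to that mean Cd5 in ultrasound 1 was at -0.32, Cd6 at -0.21, and Dgka at -0.08, Ubash3a at -0.07 and Dgkz at 0.05, these 3 inside the control range. On the same scale Pag1 at 0.33, Ptpn6 at 0.21, Cblb at 0.18 and Ptpn22 at 0.17 were above all controls in ultrasound 1, so that Ptpn22 turned from below the controls in level to above them. Sh2d2a was outside the control range in all 3 ultrasound libraries on either scale.

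**Figure D3:**
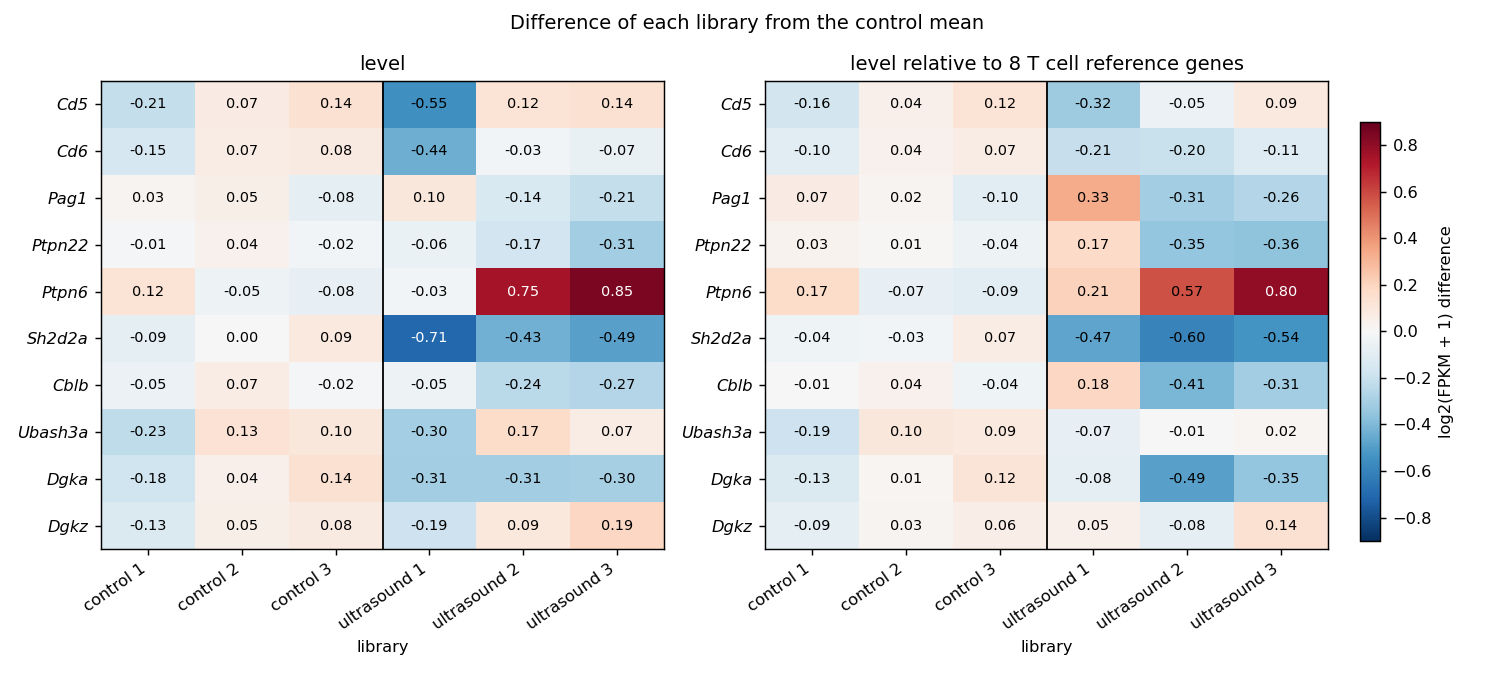
Difference of each library (columns) from the control mean for each member (rows), on the log2(FPKM + 1) scale, for the level (left) and for the level relative to the mean of 8 T cell reference genes (right). Red is higher and blue lower. Sh2d2a is blue in all 3 ultrasound libraries in both panels, and Ptpn6 is red in ultrasound 2 and 3.

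RefSeq promoter windows on GRCm38.p6 were matched for 7 of the 10 members, and not for Cd6, Sh2d2a and Pag1. Of the matched members, Dgka, Ptpn22 and Cblb are shown because their levels were below all controls in ultrasound 2 and 3, and Ptpn6 because its level was above them there. A gene can have several annotated starts, and the window is that of the start listed first. The windows of Dgka and Ptpn6 end at the edge of the gene spans given above, while those of Ptpn22 and Cblb lie inside them, downstream of the outermost annotated start. The 250 bases before each of these 4 starts read, 5′ to 3′ on the strand of the gene, with matches to the motifs named below in capitals:
Dgka, chr10:128745085-128745334, - strand: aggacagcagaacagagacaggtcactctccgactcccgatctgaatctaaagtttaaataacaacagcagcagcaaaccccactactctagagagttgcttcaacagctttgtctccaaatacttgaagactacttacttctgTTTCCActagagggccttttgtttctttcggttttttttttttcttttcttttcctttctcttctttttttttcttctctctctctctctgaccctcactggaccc
Ptpn22, chr3:103859545-103859794, + strand: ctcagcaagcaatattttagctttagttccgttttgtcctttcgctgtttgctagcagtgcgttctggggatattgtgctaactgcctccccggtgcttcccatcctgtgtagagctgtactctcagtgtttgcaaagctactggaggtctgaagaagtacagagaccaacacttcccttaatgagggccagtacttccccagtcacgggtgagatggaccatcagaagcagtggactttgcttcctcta
Cblb, chr16:52031299-52031548, + strand: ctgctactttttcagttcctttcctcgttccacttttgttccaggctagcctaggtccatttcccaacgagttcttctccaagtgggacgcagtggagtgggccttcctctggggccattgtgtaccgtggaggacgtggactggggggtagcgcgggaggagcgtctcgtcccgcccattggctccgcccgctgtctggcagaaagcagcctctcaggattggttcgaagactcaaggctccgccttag
Ptpn6, chr6:124738710-124738959, - strand: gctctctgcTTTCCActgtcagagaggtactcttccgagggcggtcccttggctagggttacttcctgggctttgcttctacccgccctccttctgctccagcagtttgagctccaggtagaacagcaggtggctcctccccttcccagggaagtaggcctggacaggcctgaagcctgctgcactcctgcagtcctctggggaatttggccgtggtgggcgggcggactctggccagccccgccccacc

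The 4 windows differ in base composition, with a G and C content of 41.2% for Dgka, 49.2% for Ptpn22, 58.8% for Cblb and 63.2% for Ptpn6. They were searched on both strands for 6 motifs of factors that act in activated or resting T cells: AP-1 (TGANTCA), NFAT (TGGAAA), FOXO (TGTTTAC), ETS (CCGGAAG), RUNX (TGTGGT) and EGR (GCGNGGGCG). No 2 of these matches overlapped in the windows shown. The NFAT letters, read as TTTCCA, occur 106 bases before the start of Dgka and 241 bases before that of Ptpn6, and 18.7% of 27025 windows of this length hold that motif. No other match was found in the 7 matched windows, while AP-1 letters occur in 6.87% of all windows, FOXO in 3.09%, ETS in 7.05%, RUNX in 14.2% and EGR in 4.65%. A match describes letters only, and the absence of one says nothing about the factor.

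A list of 28 other negative regulators was compared in the same fit, of which 25 passed the filter of at least 1 FPKM in 3 libraries. Ptprj, a receptor phosphatase of T cells, macrophages and other blood cells, was the single gene called (1 higher, 0 lower, 4% of 25). It rose from 6.01, 4.06 and 3.49 FPKM in controls to 9.18, 12.9 and 16.0 in ultrasound libraries (log2 change 1.31, standard error 0.235, limma adjusted p 0.0313). The macrophage and monocyte sum was above all controls in the same 3 libraries, and its part in the Ptprj level was not tested. The median log2 change of the list was 0.130, and 5 genes were lower and 4 higher without overlap of the groups (8.96% and 25.9% of all tested genes). The share called was below the 8.11% of all tested genes. Without ultrasound 1 the fit called 15 of 25 (9 higher, 6 lower), against 53.6% of all genes in that fit, and without control 2, control 3, ultrasound 2 or ultrasound 3 it called 0, with 2 to 4 at an unadjusted p under 0.05. Rnf128, Nf1 and Dgkh did not pass the filter.

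Of 25 proximal signalling genes, which include the substrates and partners of the members, 2 fell and 0 rose (8%, against 8.11% of all tested genes), with a median log2 change of -0.170. Cd28, the costimulatory receptor whose signal Cblb opposes, measured 64.5, 69.9 and 56.7 FPKM in controls and 35.1, 19.5 and 18.2 in ultrasound libraries (log2 change -1.41, limma adjusted p 0.0311). Themis, an adaptor that binds Ptpn6, measured 31.6, 37.7 and 35.1 against 22.4, 21.5 and 16.5 FPKM (log2 change -0.767, limma adjusted p 0.0312). Both were below every control in all 3 ultrasound libraries. Without ultrasound 1 the list had 13 calls (4 higher, 9 lower), against 53.6% of all genes in that fit, without control 1 it had 1, and without any of the other 4 it had 0, with 3 to 5 at an unadjusted p under 0.05. The kinases Lck and Zap70 were at 389.8 ± 14.3 and 86.0 ± 6.93 FPKM in controls and 409.5 ± 62.2 and 80.3 ± 7.74 in ultrasound libraries (SD, n = 3 each; limma adjusted p 0.762 and 0.544).

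Genes that TCR signalling switches on were also compared. Of 24 listed, 23 were tested, 15 fell and 0 rose (65.2%, against 1.56% of all tested genes lower and 8.11% in either direction), with a median log2 change of -1.32. The 3 largest falls were Nr4a2, a nuclear receptor (log2 change -2.80, limma adjusted p 0.0311), Tnfaip3, a ubiquitin-editing inhibitor of NF-kB (-2.56, 0.0487), and the activation marker Cd69 (-2.48, 0.0442). The count was 4 without control 1, and 0 without control 2, control 3, ultrasound 2 or ultrasound 3, where 19 or 20 had an unadjusted p under 0.05. The log2 change of Sh2d2a, at -0.541, lay nearer 0 than that median. The list holds genes that earlier results of these data already showed as lower, so its count is no independent evidence of a direction.

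**Figure D4:**
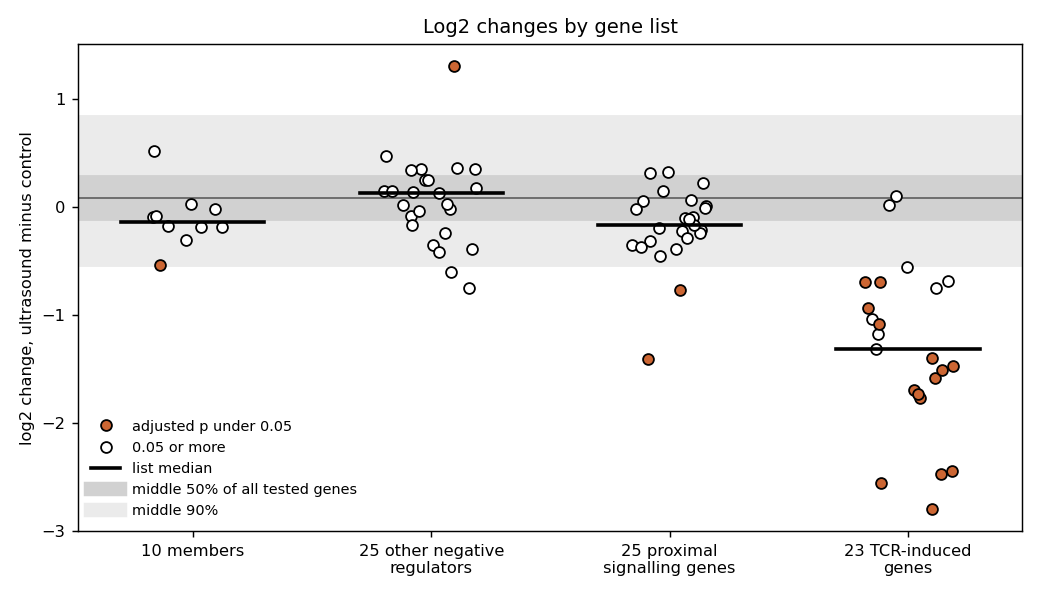
Log2 change of each tested gene (points) in the 4 lists, ultrasound minus control, with filled points for an adjusted p under 0.05 and a bar for the list median. Grey bands hold the middle 50% and 90% of all tested genes. The medians lie at -0.137 for the members, 0.130 for the other negative regulators, -0.170 for proximal signalling genes and -1.32 for TCR-induced genes.

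The genes most like each member were found by Pearson's r of log2(FPKM + 1) over the 6 libraries, among all tested genes. A search over 10655 genes with 6 points that share libraries returns high values for any gene, and the r is a description only. Sh2d2a was followed most closely by 2410006H16Rik (r 0.993) and Apol7e (0.983). The former measured 175.8, 179.0 and 186.8 FPKM in controls and 116.0, 132.0 and 131.6 in ultrasound libraries. Dgka was followed by the chaperone gene Hsp90ab1 (0.994) and by Brd2, a bromodomain protein (0.994). Hsp90ab1 had 1045, 1286 and 1490 FPKM in controls and 924.8, 897.2 and 891.4 in ultrasound libraries. Ptpn6 was followed by Slc25a45 (0.999) and by Was, the actin regulator (0.998), at 86.3, 82.8 and 80.4 FPKM in controls and 81.3, 115.0 and 120.7 in ultrasound libraries. For the other 7 members r was 0.986 to 0.999: Galnt10 and Lpin1 for Cd5, Klc3 and Lypd6b for Cd6, Zkscan8 and Tasor for Pag1, Xrn2 and Fkbp3 for Ptpn22, Esyt2 and Ankrd11 for Cblb, Gon4l and Top3a for Ubash3a, and Gm10353 and Rae1 for Dgkz.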

How the data were processed

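RNA-seq of sorted splenic CD8 T cells was analysed in 6 libraries, grouped and numbered by the sample titles. The submitters' processing notes name HISAT2, HTSeq, DESeq2, R 3.2.0 and the build mm10, without their roles; strand use in counting is not given in the sources used here, so reads of overlapping genes cannot be told apart. The authors deposited FPKM values per library and, per the file headers, a signal column set, the group means of DESeq2 normalized counts, with the fold ratio, its log2 value, and the comparison's p-value and q-value. These are not counts, so edgeR was not used and the substitute planned for FPKM was. Coordinates and promoter sequences are RefSeq's on GRCm38.p6, matched by NCBI Gene identifier or symbol.

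Limma 3.58.1 (trend, robust) in R 4.3.3 was fitted to log2(FPKM + 1) for the 10655 genes with at least 1 FPKM in 3 libraries, with two-sided p-values. Fold changes on this scale understate the change of low genes. The FPKM columns and group means gave whole reads: of 63998 values under 1000 reads, 100% lay within 0.05 of a whole number. On simulated data for this comparison with 200 genes changed by a fold of 2, limma recovered 99.0% at a dispersion of 0.01 over 10682 genes and 57.5% at 0.05 over 10677 genes, with 8 false calls each. The simulation gave all genes the same dispersion and held no library that differed as ultrasound 1 did. Folds smaller than 2, such as those of the members, were not simulated, so these rates do not apply to the members. Python 3.11.15 was used for the rest.

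The members, lists and tests were chosen with earlier results of these data known. Named are all members, their ligands, the T cell reference genes, and the 2 genes of most like pattern for a member. Genes past the threshold were also named from the other negative regulators, proximal signalling genes and TCR-induced genes. Where more than 6 passed, these were the 3 largest falls and rises. The rule does not cover the cell type marker lists, whose genes past the threshold are counted below. Lck, Zap70, Pmel and other overlapping genes, single cell type markers and the genes below the filter were named outside this rule, once their values had been seen. The alternatives were other scaling, the pseudocount, filters, the robust option, the replicate block, voom on recovered reads, the authors' DESeq2 values and each library left out. Of marker lists for 9 cell types, limma called 7 genes for macrophages and monocytes, 4 for neutrophils, and 1 each for NK cells and naive T cells. It called 0 for B cells and dendritic cells (0 at an unadjusted p under 0.05), CD4 T cells (2), erythroid cells (1) and platelets (1). Of the 8 naive T cell markers, 6 were lower without overlap of the groups, against 8.96% of all tested genes. The median log2 change of that list was -0.316. Its summed level was 746, 726 and 749 FPKM in control 1, 2 and 3, and 661, 615 and 580 in ultrasound 1, 2 and 3. How this relates to the member levels was not tested.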

Additional observations from a re-analysis of the deposited data

How the results depend on the processing

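Of the counts at an adjusted p under 0.05 (864 genes in all, 1 member, 1 other negative regulator, 2 proximal signalling and 15 TCR-induced genes), a pseudocount of 0.1, at least 1 FPKM in all 6 libraries, no robust option, upper-quartile factors and voom on recovered reads changed none by over 1.5 times. Median-of-ratios size factors gave 468 genes in all. Centring on the T cell reference genes, no filter and the replicate block each gave 0 for all 5 counts, with 2680, 4216 and 3249 genes and 2 members each at an unadjusted p under 0.05. The labels do not say whether same-numbered samples are paired. The r of deviations was -0.041, 0.051 and 0.058 for their libraries, and not every library correlated best with its own number. With 3 libraries per group, these values cannot settle whether samples are paired. With the block Sh2d2a had a limma adjusted p of 0.0853. Without ultrasound 2 and 3 the counts were 70, 0, 0, 0 and 6, with 3 members at an unadjusted p under 0.05. The authors' deposited table gives 2179, 3, 5, 11 and 18, the 3 members being Dgka, Ptpn22 and Sh2d2a.

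Leaving out 1 library at a time gave 0 to 5628 genes in all, 0 to 5 members, 0 to 15 other negative regulators, 0 to 13 proximal signalling and 0 to 20 TCR-induced genes. The highest counts are without ultrasound 1, where Cblb, Dgka, Ptpn22, Ptpn6 and Sh2d2a passed. Without control 1 the counts were 571, 0, 1, 1 and 4. Without control 2, control 3, ultrasound 2 or ultrasound 3 all 5 were 0, with 1945, 2137, 1971 and 1913 genes and 1 member each at an unadjusted p under 0.05.

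Directions turned for members that had not passed. Ultrasound 1 alone gave -0.026 for Ptpn6, -0.19 for Dgkz and 0.099 for Pag1. Dgkz was -0.091 with median-of-ratios size factors, -0.062 with upper-quartile factors and -0.088 in the authors' deposited table. With 1 library left out, Cd5 ranged from -0.21 to 0.13, Dgkz from -0.047 to 0.14 and Ubash3a from -0.14 to 0.12. For all of these, the cause was not tested. The difference in the Dgka share ranged from -3.91 to -2.25 percentage points with 1 library left out, and was -5.24 as a share of reads, which are not per length. Depth was 35024080 reads or more per library, and how it affects the calls was not tested.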
